A study of Mus musculus with 6 samples.

Results

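The peaks described here lie in and around Fat1 on mouse chromosome 8, and there were 20 of them among 123510 MACS peaks of accessible chromatin in small intestinal crypts. The rule took the 12 peaks that the deposited table names Fat1 and all further peaks of the surrounding stretch, which added 8 peaks by position alone. The locus was chosen by its measured values, because peaks inside Fat1 were low in Smarcad1-KO crypts in these same libraries. The difference between KO and WT at these peaks is therefore described here and was not tested.

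The study asked whether loss of Smarcad1 alters chromatin accessibility in the intestinal epithelium, and compared 3 WT libraries (WT1 to WT3) with 3 KO libraries (KO1 to KO3). Every library came from nuclei of whole small intestinal crypts of C57BL/6 males with no treatment named in the labels, and animal ages are not given in the sources used here. In KO mice the floxed part of Smarcad1 is removed by Cre under control of the Villin promoter, which is active in intestinal epithelial cells, and the floxed line came from 1 targeted embryonic stem cell clone. WT denotes the control mice of the study, and whether they carried the floxed allele or Cre is not stated. The sources call the libraries triplicates without naming the animals, so p-values measure only the spread between these libraries. In a preparation of mixed crypt cells, fewer cells with an open site and less opening per cell cannot be told apart.

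FAT1 is a giant cadherin of the cell surface, and its cytoplasmic tail binds actin regulators of the Ena/VASP family and components of the Hippo pathway, the kinase cascade that restrains the growth regulator YAP1. Smarcad1 is a nucleosome remodeler of the SNF2 family that is known for keeping heterochromatin marks in place. ATAC-seq reads out accessibility through a transposase that cuts DNA where nucleosomes leave it free, so promoters and enhancers appear as peaks of reads.

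Libraries held between 4339306 (KO3) and 16301164 (WT3) reads in peaks, and the Fat1 locus peaks received between 10 and 691 reads each. Values are log2 read counts scaled to the largest library, so 1 read counts as 1.00 in WT3 and as 3.99 in KO3 on the linear scale. Of 8 crypt epithelial marker genes, 6 had a peak within 1 kb of their start, with levels of 61.9 to 367 scaled reads per kb across libraries, whereas Epcam and Vil1 had none. None of 3 immune genes and 1 of 3 stromal and endothelial genes (Col1a1, 53.1 to 111 scaled reads per kb) had such a peak. Across Smarcad1, 4 peaks were found, none over the floxed exons 12 to 14, so the targeted gene offers no check of the labels here.

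The GENCODE annotation places Fat1 on the plus strand of chromosome 8 from 44935447 to 45052257 (GRCm38), a length of 116811 bp. Its longest transcript model, Fat1-205, begins at the upstream start with a short first exon and has 27 exons in all. Other transcripts begin 14761 bp further on at 44950208, within the second exon of Fat1-205, which runs from 44950196 to 44953481. Distances below are counted from the upstream start. Of 15 RefSeq transcripts of Fat1, 10 begin at 44933100, before the GENCODE upstream start and outside every peak, and 1 begins at the second start. The others begin between 44935892 and 44938086. Peaks are numbered 1 to 20 along the chromosome. The deposited table names peaks 7 to 18 Fat1 and leaves peaks 4 to 6 without a name, and the distance of 3908 bp it lists for peak 7 is that to the second start. Peaks 1 to 3 lie in the intergenic flank before the gene, peak 4 covers the upstream start, peaks 5 to 18 lie in the gene and peaks 19 and 20 follow it.

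Accessibility was lower in KO along 4 consecutive peaks, numbers 6 to 9, which begin 5.75 kb and end 28.3 kb after the upstream start and lie on both sides of the second start. At each of these, all 3 KO values were below all 3 WT values, and the geometric mean of KO on the linear scale was 42.8%, 63.1%, 64.1% and 49.4% lower than WT, in that order. The peak at the upstream start differed by -0.02 between KO and WT on the log2 scale, with a standard error of 0.42. At none of the 16 other peaks were the groups separated in either direction with the deposited scaling. Such separation is rare anyway, since 4.1% of all peaks had all KO values below all WT values and 2.7% had them above.

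The 300 bases at the middle of each of these peaks are shown first, since they are the DNA whose accessibility differed between the groups. All of them are intronic, were read from the plus strand of the GRCm38 reference, and carry in capitals any match to a motif of transcription factors known in crypts. Peaks 6 and 7 lie in the first intron of Fat1-205, before the second start, and peaks 8 and 9 lie in the next intron, after the large exon.

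Peak 6, chr8:44941501-44941800: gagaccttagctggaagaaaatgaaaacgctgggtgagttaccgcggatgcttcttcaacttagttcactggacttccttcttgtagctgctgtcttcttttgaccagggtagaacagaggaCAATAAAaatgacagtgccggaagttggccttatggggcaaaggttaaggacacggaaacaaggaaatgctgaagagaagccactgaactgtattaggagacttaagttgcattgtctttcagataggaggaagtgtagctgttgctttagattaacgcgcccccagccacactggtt

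Peak 7, chr8:44945776-44946075: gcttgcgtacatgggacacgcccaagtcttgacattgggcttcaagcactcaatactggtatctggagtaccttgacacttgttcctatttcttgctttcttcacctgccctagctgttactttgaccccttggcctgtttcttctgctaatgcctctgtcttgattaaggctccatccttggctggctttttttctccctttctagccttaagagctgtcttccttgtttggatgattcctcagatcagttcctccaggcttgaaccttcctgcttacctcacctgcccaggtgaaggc

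Peak 8, chr8:44956801-44957100: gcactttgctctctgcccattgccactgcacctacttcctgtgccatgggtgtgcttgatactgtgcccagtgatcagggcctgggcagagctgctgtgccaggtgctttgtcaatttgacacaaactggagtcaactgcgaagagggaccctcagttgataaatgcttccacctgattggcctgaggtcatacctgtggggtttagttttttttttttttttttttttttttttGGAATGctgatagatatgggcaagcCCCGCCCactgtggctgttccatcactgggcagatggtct

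Peak 9, chr8:44963026-44963325: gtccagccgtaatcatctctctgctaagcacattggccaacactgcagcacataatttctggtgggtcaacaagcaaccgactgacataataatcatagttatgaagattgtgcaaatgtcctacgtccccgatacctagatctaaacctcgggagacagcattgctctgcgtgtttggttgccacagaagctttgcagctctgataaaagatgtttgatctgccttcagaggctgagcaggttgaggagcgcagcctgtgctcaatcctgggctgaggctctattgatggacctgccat

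Matches to 8 motifs were searched on both strands of these 300-base windows at the middle of each peak, and the counts of peaks below refer to such windows. CDX2, the master regulator of intestinal identity, is known to bind near the letters TTTATNG, and peak 6 holds 1 CDX match, CAATAAA on the minus strand, marked in capitals. A CDX match stood in the windows of 4 of the 16 other Fat1 locus peaks and in 13.2% of the middles of all 123510 peaks. TEAD factors, which carry YAP1 to DNA, are known to bind near GGAATG, and peak 8 holds this match on the plus strand, as do the windows of 2 of the 16 other peaks and 17.1% of all peak middles. Peak 8 also holds CCCGCCC, a minus-strand match to the GC box of KLF and SP factors (GGGNGGG), which the windows of 6 of the 16 other peaks and 26.5% of all peak middles hold.

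The windows of peaks 7 and 9 hold no match to any motif searched, and no motif was shared by the windows of 2 of the lower peaks. Over their whole widths, peaks 6, 7 and 8 each held TEAD and KLF/SP matches, peaks 8 and 9 a GATA match and peak 8 an AP-1 match. The AP-1 motif TGANTCA stood in none of the windows of the lower peaks, in those of 3 of the 16 others and in 11.6% of all peak middles. The GATA motif AGATAA likewise stood in none of the windows of the lower peaks, in those of 3 of the others and in 16.5% of all. The HNF4 motif CAAAGTCCA stood in no window of the Fat1 locus and in 1.31% of all peak middles. The TCF/LEF motif of Wnt signalling, ATCAAAG, also stood in no window of the locus, against 4.96% of all. A match to the core of the CTCF motif, CCACTAGGTGGC, stood in peak 18 just beyond the end of the gene, and 1.28% of all peak middles held such a match.

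In base composition the lower peaks resembled the peak set as a whole. Their GC content was 45.9% to 50.0%, against a median of 47.6% over all peaks, and 7.43% to 18.5% of their bases were masked as repeats in the reference, against a median of 16.4%. They held 6.67 to 20.0 CpG dinucleotides per kb, whereas the 2 adjoining peaks at the upstream start held 50.7 and 69.5 per kb. The middle 50 bases of each of the 20 peaks occur at a single place in the reference chromosomes.

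**Figure D1:**
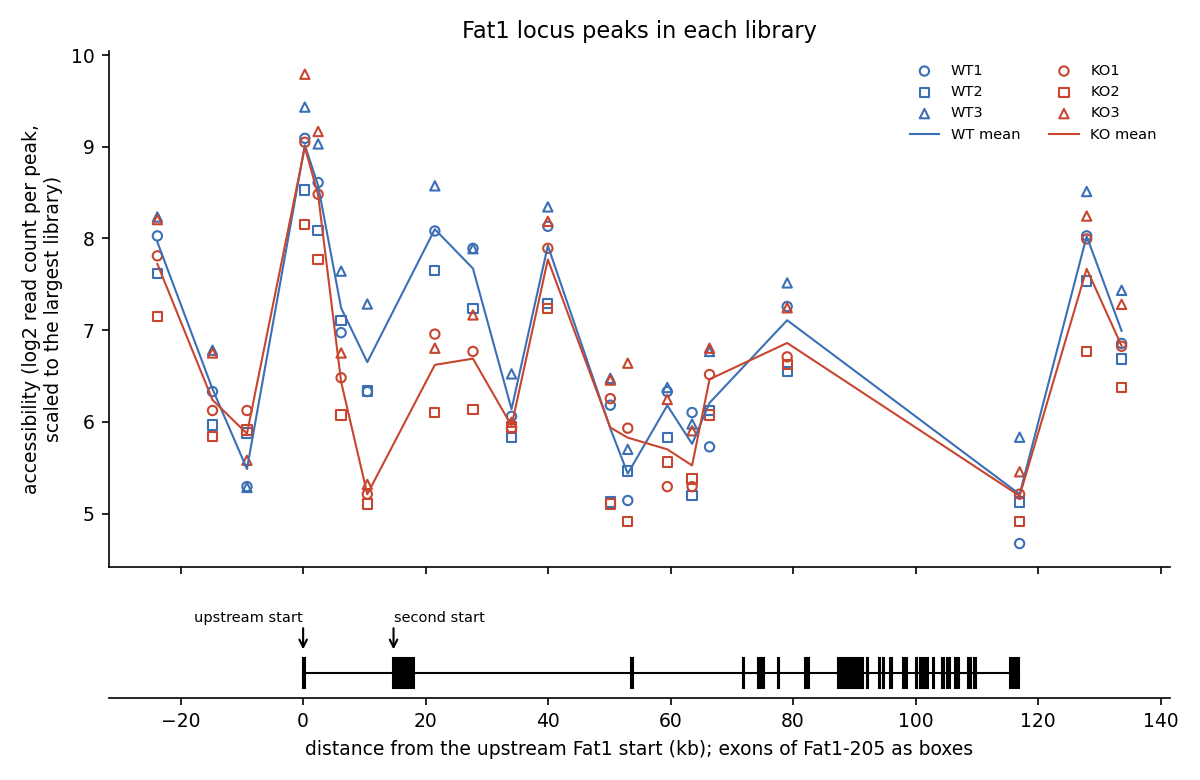
Accessibility of the 20 Fat1 locus peaks in each of the 6 libraries (vertical axis, log2 read count per peak scaled to the largest library) against the distance of the peak's middle from the upstream Fat1 start (horizontal axis, kb), with lines through the WT and KO means and the exons of Fat1-205 underneath. The WT and KO lines run together at the upstream start, part between 6 and 28 kb, and run close together again at 34 kb.

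The lower stretch was followed peak by peak, from its edge at the gene start to its edge inside the gene. Peak 4, from 44934601 to 44936850, covers the upstream start of Fat1 and the divergent noncoding RNA gene Gm9908. It had log2 values of 9.09, 8.53 and 9.43 in WT1 to WT3 and of 9.05, 8.15 and 9.79 in KO1 to KO3. The groups overlapped fully, with the highest and the lowest value both in KO libraries. Peak 5, which abuts it and was added for its position after its values were seen, had log2 values of 8.61, 8.09 and 9.03 in WT and 8.48, 7.77 and 9.17 in KO. The difference there was -0.10 with a standard error of 0.39, within the spread of either group.

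Peak 6, the first of the lower stretch, spans 44941201 to 44942100 and lies 2.25 kb after the end of peak 5. Its log2 values were 6.97, 7.11 and 7.64 in WT and 6.48, 6.07 and 6.75 in KO. The means were 7.24 ± 0.35 and 6.44 ± 0.34 (SD, n = 3 each), a difference of -0.81 with a standard error of 0.29. The highest KO library lay 0.22 below the lowest WT library.

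Peak 7 follows at 44945551 to 44946300, still before the second start. WT libraries had 41, 44 and 156 reads there and KO libraries 17, 24 and 10 reads, which on the scaled log2 axis gave 6.33, 6.34 and 7.29 in WT and 5.21, 5.10 and 5.32 in KO. The KO libraries were close to each other (SD 0.11) and the WT libraries spread more widely (SD 0.55), with WT3 high. The gap between the groups was 1.01, the widest among the Fat1 locus peaks, and the means differed by -1.44 with a standard error of 0.29.

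No peak covered the second start itself, and 10.1 kb without a peak separate peak 7 from peak 8, which spans 44956351 to 44957550. Peak 8 had 138, 109 and 381 reads in WT and 57, 48 and 28 in KO, with log2 values of 8.08, 7.65 and 8.57 in WT and 6.96, 6.10 and 6.80 in KO. Its KO level was 2.79-fold below WT, a log2 difference of -1.48 with a standard error of 0.33. In WT it was per kb among the most accessible peaks of the locus, and the highest KO library lay 0.69 below the lowest WT library.

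Peak 9, at 44962651 to 44963700, closes the stretch. Its log2 values were 7.89, 7.24 and 7.89 in WT and 6.77, 6.13 and 7.17 in KO, with means of 7.67 ± 0.38 and 6.69 ± 0.52 (SD, n = 3 each). The difference was -0.98 with a standard error of 0.32. The groups were only just apart, since KO3 lay 0.07 below WT2.

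Peak 10, at 44969101 to 44969850 and 5.40 kb beyond peak 9, was the first in which the groups overlapped again. It was also singled out for its position after its values were seen, and had log2 values of 6.06, 5.83 and 6.52 in WT and 5.93, 5.95 and 6.00 in KO. All KO values stood between WT2 and WT1, and the difference was -0.18 with a standard error of 0.26. The lower stretch as bounded by separated groups thus spanned 22.5 kb, from 44941201 to 44963700, of which its 4 peaks cover 3.9 kb. These bounds are those of the deposited scaling and all 6 libraries. The last separated peak ended at 45015150 with WT2 left out and at 44995200 with KO3 left out.

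**Figure D2:**
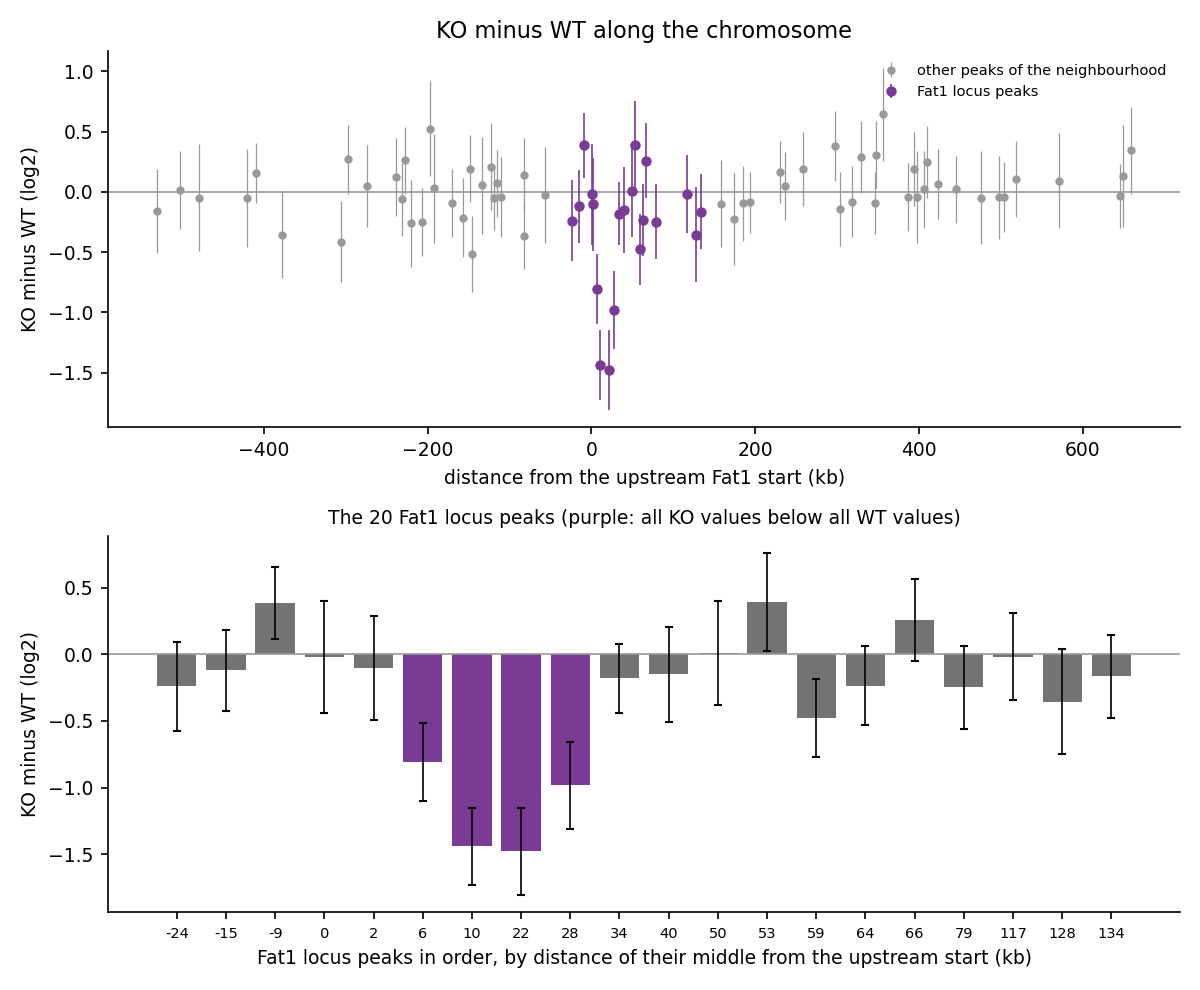
KO minus WT (vertical axes, log2 difference) with its standard error from the fit across all peaks. The upper panel places the 20 Fat1 locus peaks (purple) and 57 other peaks (grey) by distance from the upstream start in kb, and the lower panel shows the Fat1 locus peaks in order, with purple bars for peaks 6 to 9, whose differences run from -0.81 to -1.48 while all other bars lie between -0.48 and 0.39.

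If the extent is taken from means alone, the longest run of neighbouring peaks with a KO mean below the WT mean held 8 peaks, numbers 4 to 11, over 41.7 kb. This longer limit likewise depended on single libraries. The run held 4 peaks without WT3, 5 without KO2 and 12 without KO3. The bordering peaks outside the run were peak 3, at 5.29, 5.88 and 5.29 in WT and 6.12, 5.91 and 5.58 in KO on the log2 scale, and peak 12, at 6.18, 5.13 and 6.48 in WT and 6.25, 5.10 and 6.46 in KO. Both overlapped between the groups, with peak 3 higher in KO by 0.39, a peak of which 92.7% is masked as repeat, and peak 12 differing by 0.01.

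The number of Fat1 locus peaks with all KO values below all WT values was 4 of 20, where 4.1% of all 123510 peaks met that condition. KO means were below WT means at 16 of the 20, against 53.1% of all peaks, and differences of -0.5 or lower were found at 4, against 5.27% of all peaks. No peak of the locus had all KO values above all WT values, which 2.7% of all peaks had. Because the locus was picked on this contrast, these shares are only set side by side. Without WT2, a further 4 peaks (numbers 10, 14, 15 and 17) had both remaining WT values above all KO values, making 8. The median difference of the 20 peaks was -0.17, and it was 0.03 without WT3 and 0.07 without KO2, whereas the median over all peaks was -0.02, and 0.08 without WT3 and likewise 0.08 without KO2.

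The spread between libraries along the locus was itself patterned. At peak 4 the library order from low to high was KO2, WT2, KO1, WT1, WT3 and KO3, so the libraries numbered 2 were low and those numbered 3 high in both groups. The deposited scaling left a like pattern over all peaks. Median log2 values were 5.63 in WT2 and 5.69 in KO2, against 5.82 (KO1) to 5.93 (WT3) in the other libraries. To compare peaks within a library, the log2 value of peak 4 was subtracted from each. On this scale peak 7 stood at -2.37 ± 0.34 in WT and -3.78 ± 0.72 in KO, peak 8 at -0.92 ± 0.08 and -2.37 ± 0.53, and peak 9 at -1.35 ± 0.18 and -2.31 ± 0.31 (SD, n = 3 each). The groups stayed apart at peaks 7, 8 and 9 and overlapped at peak 6, which stood at -1.78 ± 0.35 and -2.56 ± 0.48. The spread of peak 4 itself, an SD of 0.46 in WT and 0.82 in KO, enters all these values.

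The reads of peaks 6 to 9 as a share of all reads in the 20 Fat1 locus peaks give a measure that needs no scaling between libraries. The share was 22.0% in WT1, 23.7% in WT2 and 23.0% in WT3, and 13.2% in KO1, 13.7% in KO2 and 10.7% in KO3. The 95% Wilson intervals, which cover counting error only, reached down to 20.1% in WT and up to 15.8% in KO. Since peaks 6 to 9 were set apart for their lower KO values, a lower share in KO follows from that choice and is given as a description. Scaled to 1000000 reads in peaks per library, peaks 6 to 9 together received 51.4, 50.2 and 59.8 reads in WT and 26.3, 21.8 and 23.3 in KO. On the same scale the 16 other peaks received 182, 161 and 200 reads in WT and 173, 137 and 194 in KO, ranges that overlap.

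**Figure D3:**
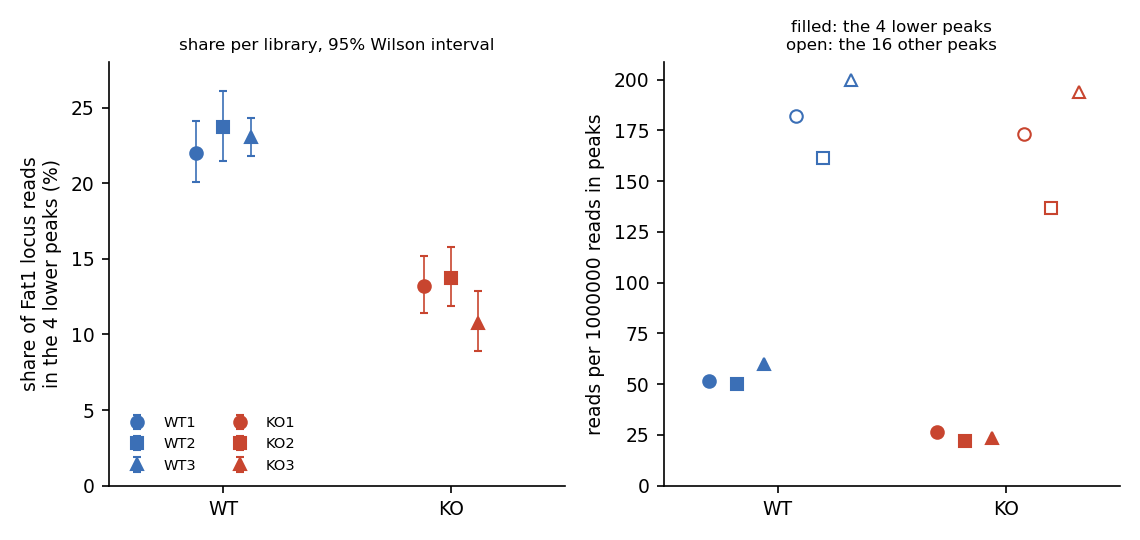
Left, reads in peaks 6 to 9 as a percentage of the reads in all 20 Fat1 locus peaks in each library, with 95% Wilson intervals; right, reads scaled to 1000000 reads in peaks for peaks 6 to 9 (filled) and for the 16 other peaks (open). WT libraries lie at 22.0% to 23.7% and KO libraries at 10.7% to 13.7%, while the open symbols of both groups overlap.

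Summed by segment on the linear scale and then put on the log2 scale, the flank before the gene (3 peaks) differed between KO and WT by -0.12, the peak at the upstream start by -0.02, the 14 peaks of the gene body by -0.42 and the flank after the gene (2 peaks) by -0.28. Peaks 6 to 9 alone summed to 9.52 ± 0.39 in WT (SD, n = 3) and to 8.35 ± 0.39 in KO, a difference of -1.17. The remaining 10 gene body peaks summed to 10.21 ± 0.44 and 10.11 ± 0.50, a difference of -0.10. Peaks 6 to 9 were set apart for their lower KO values, so a smaller difference in the remainder follows from the choice.

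Past the lower stretch, peaks 11 to 17 lie in introns further along the gene and all of them overlapped between the groups. The largest of their differences was at peak 14 (44994601 to 44995200), with log2 values of 6.33, 5.83 and 6.38 in WT and 5.29, 5.56 and 6.24 in KO, a difference of -0.48 with a standard error of 0.29. KO1 and KO2 were below all WT libraries and KO3 was between them. Peak 13 (44988151 to 44988750) had the largest higher value, 0.39 with a standard error of 0.36, from 5.14, 5.46 and 5.70 in WT and 5.93, 4.91 and 6.64 in KO. KO3 was far above the other libraries there, while KO2 was the lowest of all. Peak 18 covers the end of the last exon and differed by -0.02. The peaks after the gene, over the noncoding gene AY512931 and over the start of the melatonin receptor gene Mtnr1a, differed by -0.36 and -0.16, with overlapping groups.

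Levels are compared between peaks only as scaled reads per kb of peak on the linear scale. In WT, peak 19 at AY512931 was highest with 258 ± 85.7, followed by peak 4 at the upstream start with 238 ± 71.5 and peak 8 with 237 ± 75.8 (SD, n = 3). Peaks 9, 6 and 7 stood at 199 ± 47.5, 172 ± 44.3 and 141 ± 58.0, and the lowest, peak 3, at 60.9 ± 15.2. None of the 19 steps between neighbours in this order exceeded the smaller of the 2 SDs, so the order is a gradient without clear ranks. In KO, peak 8 stood at 84.7 ± 24.2, peak 9 at 103 ± 35.0 and peak 6 at 98.0 ± 22.4. Peak 7 had the lowest level of the locus in KO, 49.5 ± 3.66.

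**Figure D4:**
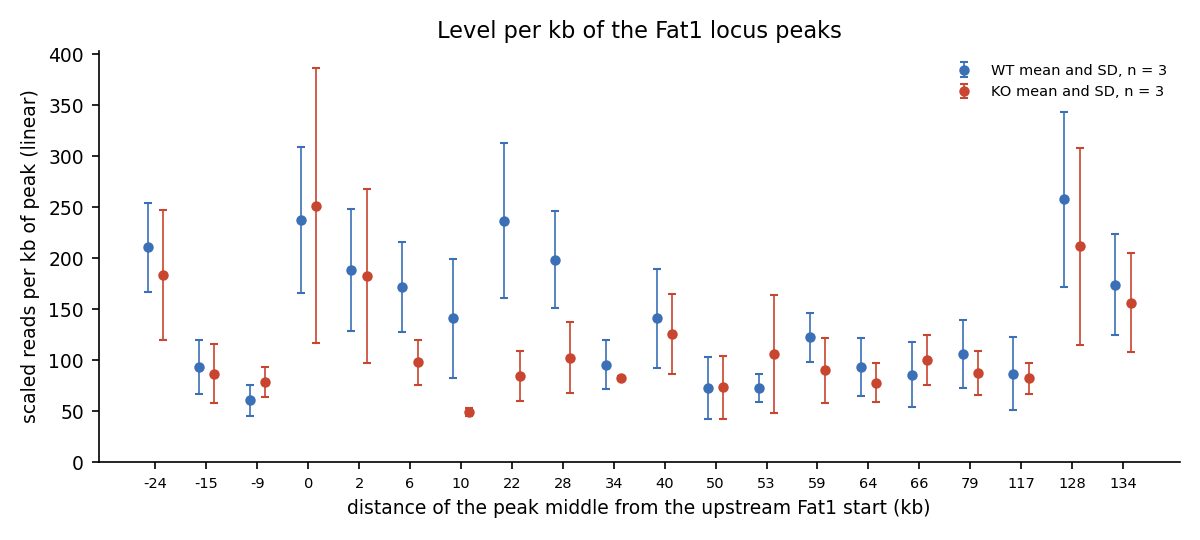
Level of each Fat1 locus peak (vertical axis, scaled reads per kb of peak, linear) as mean and SD of 3 WT and 3 KO libraries, ordered by the distance of the peak's middle from the upstream start (horizontal axis, kb). In WT, peaks 6 to 9 stand between 141 and 237, and in KO between 49.5 and 103, and the SD bars of the groups overlap at the other peaks and at none of these. Peaks 6 to 9 were set apart for their lower KO values, so this contrast largely follows from the choice.

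The neighbourhood was then followed from a peak at -531 kb to one at 659 kb relative to the upstream start, which adds 57 peaks to the 20. None of these 57 had all KO values on one side of all WT values, where 4.1% of all peaks had them below and 2.7% above. Their differences ran from -0.52 to 0.64 with a median of 0.01, and the KO mean was below the WT mean in 28 of them. In windows of 50 kb the summed signal differed most in the window from 44950001 to 45000000, by -0.54, which holds peaks 8 and 9 and 6 others. The next lowest window, at -0.36, holds 1 peak. Across the whole table, 6 stretches of 4 or more neighbouring peaks had all KO values below all WT values in each peak, the Fat1 stretch among them. In 8 such stretches all KO values were above. Most of these 8 lie close together on chromosome 5, between 14950051 and 15693900.

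Over the 12 peaks named Fat1, the mean log2 value after subtraction of each library's median was 0.61, 0.51 and 1.01 in WT and 0.34, 0.07 and 0.61 in KO, so the gene's mean overlapped between groups although peaks 7 to 9 among them did not. Among 6365 other gene names with at least 3 peaks, those whose mean followed that of Fat1 most closely over the 6 libraries were Cngb3 (Pearson r = 0.99), Zranb2 (0.97), Tpd52l1 (0.97), Prrc2c (0.97) and Sdcbp (0.96). These are descriptions over 6 points that share depth and scaling, and 81 names had an r above 0.9.

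The other genes of the Fat and Hippo pathways were followed through a list, with tests across all peaks. Of 32 listed genes, 28 had a peak by name and they had 150 peaks in all. None of the 150 passed an adjusted p-value of 0.05 in limma, where 0% of all 123510 peaks did, and scaling the libraries differently gave 2 or 3 calls over all peaks and none in the list. At an unadjusted p-value below 0.05, limma had 3 of the 150 (all higher in KO), or 2.00%, against 2.28% of all peaks. The median difference over the 150 was 0.04, against -0.02 over all peaks. A KO mean below the WT mean was found at 61 of them, or 40.7%, against 53.1% of all peaks. All KO values were below all WT values at 3 of the 150, where 4.1% of all peaks met that condition, and above at 9, where 2.7% did.

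By role, the other FAT cadherins and their partners Dchs1, a ligand of FAT4, and Fjx1, the relative of the Drosophila kinase four-jointed, had 13 peaks with differences from -0.53 to 0.31 and a median of -0.02. Fat2 and Dchs2 had no peak. The kinases and scaffolds of the Hippo cassette, in which Stk3 and Stk4 activate the LATS kinases and Nf2 encodes the upstream regulator merlin, had 48 peaks with a median of 0.02. The effectors, YAP1, its relative encoded by Wwtr1 and the DNA-binding TEAD factors, had 33 peaks with a median of 0.06, and Tead2 had none. The target genes Cyr61, Ctgf and Amotl2 had 6 peaks with a median of -0.13, and Ankrd1 had none. Genes for proteins that bind the FAT1 tail or act with it had 50 peaks with a median of 0.09. They include the actin regulators Enah, Vasp and Evl, but most of the 50 peaks belong to Rere. Peaks of Rere therefore weigh most in this median and also enter the counts over all 150 listed peaks.

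The 3 listed peaks with the largest differences were all higher in KO and none passed the adjusted test. An Enah peak on chromosome 1 (181975501 to 181975800) had log2 values of 3.97, 4.20 and 4.52 in WT and 5.21, 5.38 and 5.17 in KO, a difference of 1.02 (standard error 0.34; adjusted p = 1.00 in limma). A Stk3 peak on chromosome 15 (34982551 to 34982850) had 3.97, 4.69 and 4.32 in WT and 5.21, 5.22 and 5.32 in KO, a difference of 0.92. A Yap1 peak on chromosome 9 (7992451 to 7993200) had 5.14, 5.46 and 5.46 in WT and 5.58, 6.30 and 6.46 in KO, a difference of 0.76. The groups did not overlap at these peaks, but they are small ones, with 8 to 29 reads per library at Enah, 8 to 26 at Stk3 and 18 to 55 at Yap1. The peak over the start of Nf2 stood at 418 ± 88.3 scaled reads per kb in WT and 395 ± 98.6 in KO, and that over the start of Yap1 at 186 ± 69.3 and 173 ± 77.5 (SD, n = 3), gaps smaller than the SD of either group.

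**Figure D5:**
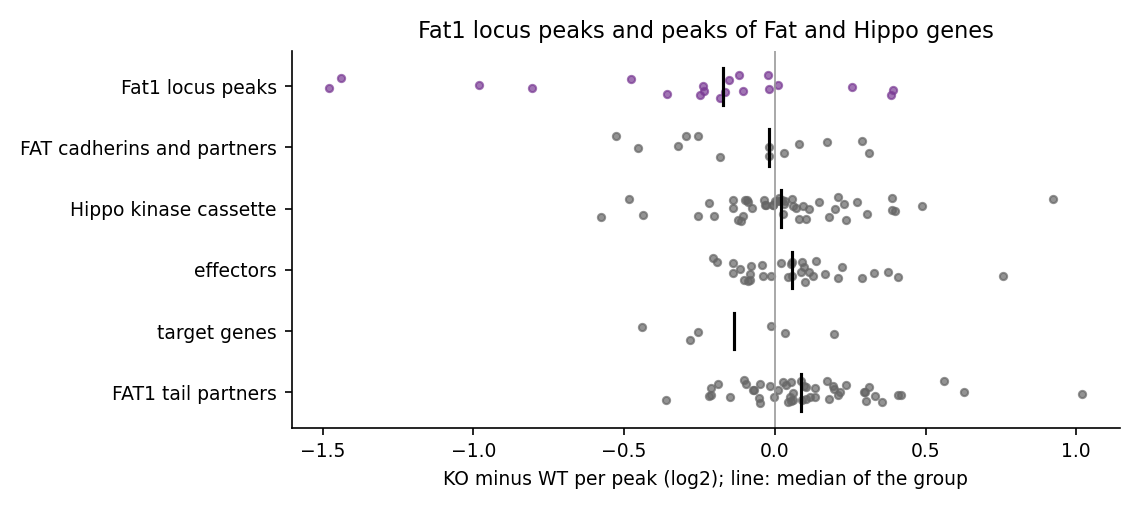
KO minus WT of each peak (horizontal axis, log2 difference) for the 20 Fat1 locus peaks and for the 150 peaks of Fat and Hippo genes grouped by role, with a line at each group's median; vertical scatter within a row has no meaning. The lowest listed peak lies at -0.58.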

How the data were processed

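ATAC-seq libraries of crypt nuclei were trimmed by the authors with Trim Galore (0.4.1), mapped to GRCm38 with Bowtie2 (2.2.5) and imported into SeqMonk with duplicates removed, where MACS peaks were called as 1 set. The sources do not name the libraries that entered peak calling. Per peak and library, the authors deposited log2 read counts scaled to the largest library. A second deposited table of peaks past the authors' edgeR threshold, with their FDR, was not used.

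Members and gene lists were chosen with earlier results of these data known. Reads were recovered as whole multiples of 1 constant per library (100% of values within 0.05 of a whole read). Differences and standard errors came from limma (3.58.1, R 4.3.3, lmFit and eBayes with trend) on all 123510 peaks and 6 libraries, two-sided with Benjamini-Hochberg adjustment. It took the place of the authors' edgeR because the deposited values are log2, and edgeR was not run on the recovered reads. The fit was run on simulated data with planted differences larger than any at the Fat1 locus. That run does not show how well differences of the size seen here are found. In the main limma fit, no other scaling, filter or pseudocount was applied to the deposited values. Library values are given for the peak at the gene start, the 6 peaks with the largest absolute difference and the neighbours of the longest lower run, and for the 3 listed peaks with the largest difference. Sequence came from the GRCm38 reference and RefSeq, gene models from GENCODE vM21. Alternatives were median centring, trimmed means of M values, quantile normalization, voom on recovered reads, a replicate block, a pseudocount of 5, a minimum mean of 50, each library left out, a threshold of 0.1, and list peaks by overlap.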

Additional observations from a re-analysis of the deposited data

How the results depend on the processing

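In the main limma fit, 0 peaks were called over the whole table (2821 at an unadjusted p-value below 0.05). The authors' own edgeR test did find peaks with changed accessibility, so the 0 holds for this fit only. Since edgeR was not run here, the reason for the difference in calls was not tested. Calls numbered 2 after centring libraries on their medians, 2 with trimmed means of M values, 3 with quantile normalization and 3 with voom on recovered reads. Leaving out 1 library at a time gave 0 to 30 calls, with 30 without KO2 and 1 without WT3. With the replicate number as a block there were 272 calls, none of them in the Fat and Hippo list, while the differences of means cannot move under it with 1 WT and 1 KO library per number. Same-numbered libraries correlated after subtraction of the group means at 0.04, 0.42 and 0.41 for numbers 1, 2 and 3, and WT1 correlated about as well with KO3 as with KO1, so the numbers were not taken as pairs. The differences of peaks 6 to 9 lay between -0.60 and -1.71 over 13 alternatives. Leaving out 1 library gave 4 to 8 Fat1 locus peaks with all KO values below all WT values and a longest lower run of 4 to 12 peaks. The other scalings, the pseudocount and the filter gave 4 to 6 and 8 to 9. With quantile normalization and with voom the first separated peak was peak 1, at 44911051. With voom the last one ended at 44995200. The minimum mean of 50 left 19 of the 20 peaks. Over the leave-outs the median difference ranged from -0.42 to 0.07 for all Fat1 locus peaks and from -0.49 to -0.02 for the gene body. The list had 0 calls under all 15 alternatives. The cause of these shifts was not tested. KO3 had the fewest reads, and at peak 7 its value rested on 10 reads.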
